A study of Mus musculus with 15 samples.

Results

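Whole tongue of newborn mice was compared between 4 libraries of Tmprss11 knockout mice and 4 wild-type libraries. These 8 of the 15 libraries of the series were chosen by their titles, and the 7 epidermis libraries were not used. Both groups were at postnatal day 1. The knockout genotype is labelled Tmprss11a,b,c,d,e,f,g-/-, for the 7 targeted genes of the HAT/DESC family, and the other group is labelled wildtype. The labels give no background strain beyond the name of the gene cluster, no cell type specific driver and no word on whether each sample came from its own animal. P-values thus measure how far these samples spread, which may be technical. Of the targeted genes, 6 were analysed. Each library also has a number in its label, in the range A32x for replicate 1, A34x for replicate 2 and A38x for replicates 3 and 4 of both groups. What a range marks is not stated.

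The HAT/DESC proteases are trypsin-like serine proteases anchored in the plasma membrane by a single segment near their amino terminus, with the catalytic domain outside the cell. They are made mainly by surface epithelia such as those of the airway, the mouth and the skin, and their genes lie side by side. Whole tongue holds a stratified keratinised epithelium over connective tissue and a core of skeletal muscle. In such bulk tissue, fewer cells of a type and less RNA per cell cannot be told apart.

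Counted reads ran from 10685429 in KO 3 to 17819195 in KO 4, with 35.5% to 40.8% from the ribosomal RNAs of mitochondria (mt-Rnr1, mt-Rnr2). The labelled tissue was checked by its markers. The oral keratins Krt13 and Krt4 stood at means of 3169.5 and 2304 CPM (counts divided by the scaled library size and multiplied by 1e6) in wild type. Of the muscle genes, Ttn stood at 16074 and Acta1 at 2863 CPM. The fibroblast collagen gene Col3a1 stood at 2838 CPM. Summed CPM of the epidermal keratin genes Krt1, Krt10, Krt2 and Krt77 was 53.2 to 117 in wild type and 71.5 to 96.9 in knockout. KO 3 stood apart from the other libraries, at 53.8 on a first principal component holding 32.3% of the variance. KO 4 lay at 16.9 on it and the other 6 libraries between -18.1 and -5.5. On the second component (27.9%), WT 1 at 30.6 and KO 1 at 33.4 lay together, away from the others. More Xist than Y-linked reads were counted in 2 of 4 libraries of each group, and in A38x in KO 3 only.

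**Figure D1:**
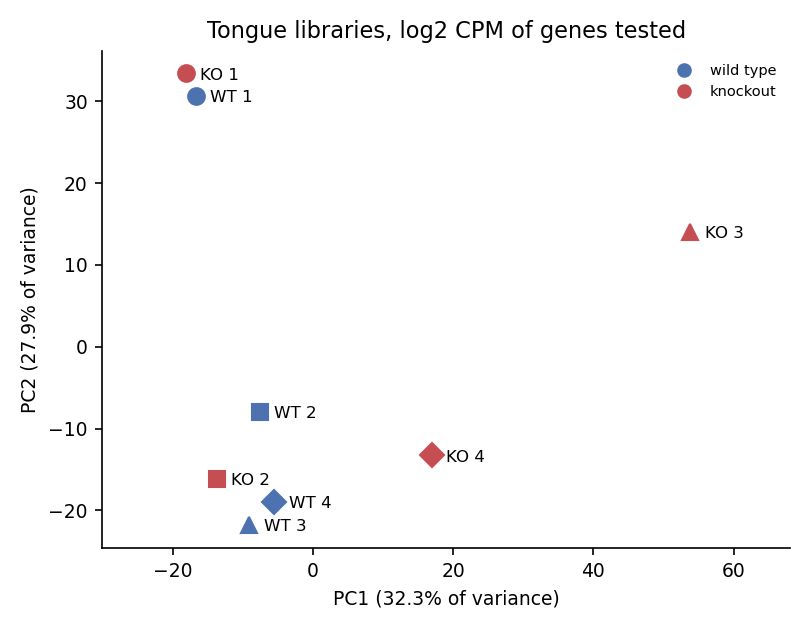
The first 2 principal components of log2 CPM over the genes tested, with each axis giving its share of variance. Points are the 8 libraries, blue for wild type and red for knockout, and shapes mark the replicate number. KO 3 stands at 53.8 on the first component, and WT 1 and KO 1 stand above 30 on the second.

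The expression of 2 genes fell in the knockout tongue, Tmprss11a and Tmprss11b, and both belong to the targeted cluster. These were 2 of 15741 genes tested with edgeR (0.0127%), both lower in the knockout, and 0 genes rose. All 6 analysed targeted genes still had reads in the knockout. Transcripts of an edited gene can be counted without a working protein, and their levels do not measure the loss of a protease. All 6 had a log2 fold change below 0, with a median of -1.18 where that of all genes tested was 0.01.

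Tmprss11a encodes HATL1, a protease of oral and oesophageal epithelium. In wild type it stood at 226, 209, 216 and 221 CPM in replicates 1 to 4, and in the knockout at 71.4, 71.0, 81.8 and 79.3 CPM. The groups were far apart and varied little within themselves. The knockout mean of 75.9 ± 5.52 CPM was 34.8% of the wild-type mean of 218 ± 7.30 CPM (SD, n = 4 each). The log2 fold change was -1.52 (SE 0.09, 95% interval -1.73 to -1.32; edgeR adjusted p = 2.3e-05).

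Tmprss11b encodes HATL5, another family member of squamous epithelia. It stood at 48.5, 47.3, 56.4 and 58.9 CPM in the 4 wild-type libraries and at 10.96, 10.15, 14.87 and 15.23 CPM in the 4 knockout libraries. The groups were again far apart, with no knockout library above 15.23 CPM and no wild-type library below 47.3 CPM. The mean went from 52.8 ± 5.74 to 12.8 ± 2.62 CPM (SD, n = 4 each), with a log2 fold change of -2.04 (SE 0.15, interval -2.38 to -1.71; edgeR adjusted p = 1.2e-04). Both calls held in all 20 alternative settings, where the adjusted p reached at most 0.0381.

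Tmprss11d encodes HAT, the airway trypsin-like protease that gave the family its name. It stood at 49.9, 50.9, 56.2 and 55.2 CPM in wild type and at 31.96, 33.55, 24.04 and 28.88 CPM in the knockout, where it did not overlap with wild type. Its log2 fold change of -0.84 (SE 0.12) did not pass (edgeR adjusted p = 0.0583). It passed with DESeq2 (adjusted p = 9.1e-07) and in edgeR without a filter on low counts (adjusted p = 0.0339).

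Tmprss11e encodes DESC1, named for its expression in squamous epithelium. It was a minor transcript in tongue, at 4.14, 3.46, 4.71 and 5.00 CPM in wild type and 1.505, 0.828, 0.935 and 1.982 CPM in the knockout. The groups did not overlap, and the knockout mean was 30.3% of wild type. Its log2 fold change of -1.68 (SE 0.28) did not pass in edgeR (adjusted p = 0.227) and passed in DESeq2 (adjusted p = 3.7e-04).

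Tmprss11f, which encodes HAT-like 4, the protease named in the title of the study for its role in the epidermal barrier, stood at 12.8, 11.5, 11.9 and 13.4 CPM in wild-type tongue. In the knockout it stood at 8.74, 7.87, 7.67 and 10.1 CPM, below every wild-type library. Its log2 fold change was -0.52 (interval -0.82 to -0.22; edgeR adjusted p = 0.939). Tmprss11g had the smallest difference, at 2.07 to 4.10 CPM in wild type and 1.86 to 3.45 CPM in the knockout. It was the only one of the 6 whose groups overlapped (log2 fold change -0.31, interval -0.90 to 0.28; edgeR adjusted p = 0.939). Over all genes, 1.56% had knockout libraries entirely below the wild-type ones.

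**Figure D2:**
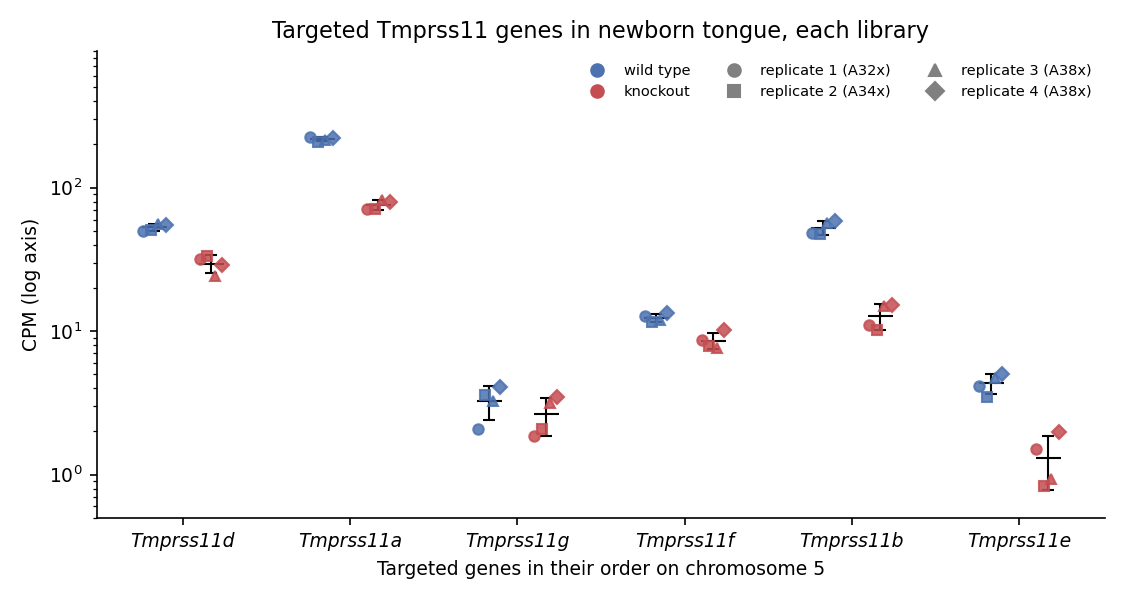
CPM (log axis) of the 6 targeted genes in each library, in their order along chromosome 5. Points are libraries, blue for wild type and red for knockout, with shapes for the replicate number and black bars for the mean ± SD of 4. Tmprss11a stands at 209 to 226 CPM in wild type and 71.0 to 81.8 in the knockout, and Tmprss11g is the gene whose groups overlap.

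Genes of different length can be compared only per length, so levels were divided by the length of each gene's merged exons. In wild-type tongue Tmprss11a led at 38.2 CPM per kb, followed by Tmprss11d at 19.0 and Tmprss11b at 12.6. Tmprss11f at 1.82, Tmprss11e at 1.27 and Tmprss11g at 0.650 CPM per kb were minor. In the knockout Tmprss11a at 13.3 and Tmprss11d at 10.6 CPM per kb remained the leading transcripts, and Tmprss11b was at 3.07. Tmprss11a made up 51.9 ± 2.03% of the summed CPM per kb of the 6 genes in wild type and 45.6 ± 3.19% in the knockout (SD, n = 4 each). The share of Tmprss11d was 25.8 ± 0.898% in wild type and 36.4 ± 5.42% in the knockout, with no overlap between groups. That of Tmprss11b was 17.2 ± 1.18% and 10.5 ± 1.99%. The minor members Tmprss11f, at 2.48 ± 0.124% and 4.33 ± 0.424%, and Tmprss11g, at 0.883 ± 0.227% and 1.80 ± 0.505%, had larger shares in the knockout, also with no overlap. Tmprss11e, at 1.72 ± 0.198% and 1.31 ± 0.494%, overlapped. The shares are parts of a whole, so they rise for some genes where they fall for others. In CPM, the knockout means of Tmprss11d, Tmprss11f and Tmprss11g were 55.8%, 69.3% and 81.1% of wild type. The shares were not tested.

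On chromosome 5 (GRCm38) the 6 genes share the minus strand within 443.6 kb. Tmprss11d spans chr5:86302217-86373420, Tmprss11a chr5:86410410-86468990, Tmprss11g chr5:86485876-86518600, Tmprss11f chr5:86521898-86632424, Tmprss11b chr5:86657631-86676362 and Tmprss11e chr5:86705186-86745815. The differences did not follow this order. Tmprss11g and Tmprss11f, at log2 fold changes of -0.31 and -0.52, lie between Tmprss11a at -1.52 and Tmprss11b at -2.04.

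The promoters are shown of the 3 members with the highest CPM per kb, of which Tmprss11a and Tmprss11b fell and Tmprss11d did not pass. Each is the 250 bases before the RefSeq start site (GRCm38.p6, minus strand, written 5′ to 3′), for Tmprss11a chr5:86468991-86469240, for Tmprss11b chr5:86676299-86676548 and for Tmprss11d chr5:86373388-86373637. The RefSeq start sites of Tmprss11b and Tmprss11d lie inside the gene spans given above, which come from GENCODE. Part of both windows is thus within the gene by that annotation. Distances of motifs are counted from the RefSeq start site. Capitals mark matches to the motifs described after the sequences.
Tmprss11a: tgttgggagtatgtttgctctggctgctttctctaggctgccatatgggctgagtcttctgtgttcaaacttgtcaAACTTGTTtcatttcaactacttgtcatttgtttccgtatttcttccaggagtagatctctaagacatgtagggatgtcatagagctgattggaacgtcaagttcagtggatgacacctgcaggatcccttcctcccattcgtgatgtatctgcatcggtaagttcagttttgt
Tmprss11b: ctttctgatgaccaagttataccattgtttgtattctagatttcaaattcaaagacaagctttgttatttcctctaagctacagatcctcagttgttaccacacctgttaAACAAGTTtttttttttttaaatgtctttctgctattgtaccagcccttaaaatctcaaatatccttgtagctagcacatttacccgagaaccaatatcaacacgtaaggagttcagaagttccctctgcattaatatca
Tmprss11d: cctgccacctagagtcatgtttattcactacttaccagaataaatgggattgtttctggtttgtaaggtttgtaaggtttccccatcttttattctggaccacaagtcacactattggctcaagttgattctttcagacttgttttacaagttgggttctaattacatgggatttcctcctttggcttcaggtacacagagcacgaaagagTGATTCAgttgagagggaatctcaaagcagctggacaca

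Both strands were searched for AACNNGTT, the motif of the grainyhead-like factors that act in surface epithelia, and TGANTCA, the motif of AP-1 factors. The grainyhead-like motif was in the promoter of Tmprss11a, its first base 174 bases before the start, in that of Tmprss11b, 140 bases before it, and at 56 and 47 bases before the start of Tmprss11g, the member with the smallest difference. The AP-1 motif was in the promoters of Tmprss11d and Tmprss11f, 39 and 48 bases before the start. Of all 32851 RefSeq promoters of the same length, 3.64% held the first motif and 6.75% the second. None of the 5 promoters found for the targeted genes held TATAAA (12.4% of all) or the KLF motif CCACACCC (3.20% of all), in these letters and in this window. A match is a description of the sequence and not evidence that a factor binds there.

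No gene on either side of the cluster was called. Within 1 Mb, 11 other genes were in the table and 4 passed the filter on low counts. Before Tmprss11d, Uba6, which encodes a ubiquitin-activating enzyme, had a log2 fold change of -0.07 (interval -0.28 to 0.14). Cenpc1, which encodes a centromere protein, stood at -0.08 (interval -0.31 to 0.15). After Tmprss11e, Ythdc1, which encodes a nuclear reader of methylated RNA, stood at 0.11 (interval -0.15 to 0.36). The pseudogene Gm5869 stood at 0.08. The intervals of these 4 genes lie within 2-fold of no change. The other 7, among them Ugt2b34, Ugt2b5 and Sult1b1, were too low to test.

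Across all 15741 genes, the 95% interval of 13888 (88.2%) lay within 2-fold of no change. An unadjusted p under 0.05 was found for 496 genes (3.15%), of which 233 (1.48%) were lower in the knockout. Of all genes tested, 2.37% had groups that did not overlap, 0.807% with the knockout higher. DESeq2 called 4 genes (0.0254%), limma-voom 2 and limma-trend 2, and their counts at an unadjusted p under 0.05 were 470 (2.99%), 462 (2.94%) and 492 (3.13%). The 4 genes called by DESeq2 were Tmprss11a, Tmprss11b, Tmprss11d and Tmprss11e.

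**Figure D3:**
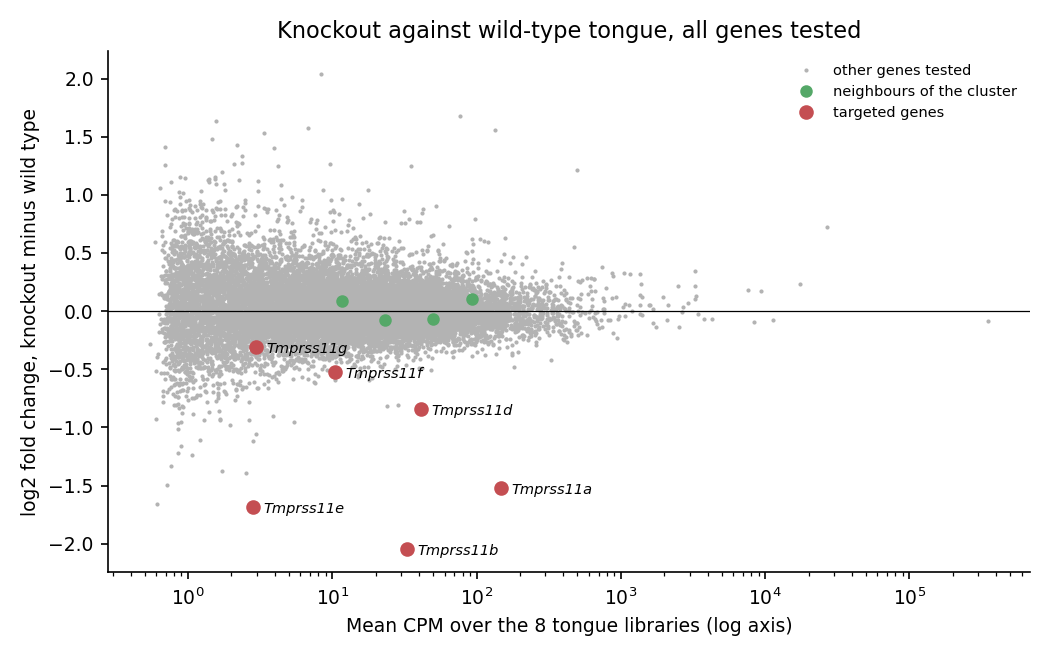
The log2 fold change of each of 15741 genes (knockout minus wild type) against its mean CPM over the 8 libraries on a log axis. Grey points are single genes, green the 4 tested neighbours and red the 6 targeted genes. Tmprss11a at -1.52 and Tmprss11b at -2.04 stand below other genes of their level.

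None of the genes outside the cluster with the smallest p passed (edgeR adjusted p = 0.939 for each), and across the other settings their smallest adjusted p was 0.0686. Higher in the knockout was Lims2, a focal adhesion adaptor, at 1.80, 2.63, 1.73 and 1.79 CPM in wild type and 4.01, 3.38, 4.77 and 4.19 CPM in the knockout. Its groups did not overlap and its log2 fold change was 1.03 (SE 0.21). Agfg2 stood at 3.91 to 5.13 CPM in wild type and 6.14 to 9.45 CPM in the knockout (log2 fold change 0.90). Slc6a6, the taurine transporter, stood at 0.50 and Scd2, a fatty acid desaturase, at 0.63. Scn4a, the sodium channel of skeletal muscle, stood at 0.53, and Nctc1, a noncoding RNA transcribed near H19, at 0.88.

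Several of these genes were high mainly in the A38x knockout libraries. Adamts15, which encodes a secreted metalloprotease, stood at 25.2 and 17.6 CPM in KO 3 and KO 4 against 11.2 and 8.08 CPM in KO 1 and KO 2 and 7.34 to 8.43 CPM in wild type. Cytip, which encodes a cytohesin-binding protein of leukocytes, stood at 4.49 and 4.19 CPM in KO 3 and KO 4 and at 3.08 and 0.897 CPM in KO 1 and KO 2. Its log2 fold change was 1.43 over all libraries, 2.04 in A38x and 0.61 without it. By contrast, Adhfe1, a mitochondrial transhydrogenase, stood at 0.93 in A38x and 1.02 without it, and Serpina3n, a secreted protease inhibitor, at 0.39 and 0.82.

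The 12 genes below 0 outside the cluster with the smallest p likewise did not pass. Mcm5 and Mcm4, subunits of the replicative helicase, stood at log2 fold changes of -0.59 and -0.47. Tyms, which makes thymidylate, stood at -0.54 and Pclaf, a partner of the sliding clamp, at -0.56. The securin gene Pttg1 stood at -0.58 and the tubulin gene Tuba1c at -0.35. Nts, the precursor of the peptide neurotensin, stood at 2.16 to 5.12 CPM in wild type and 1.47 to 2.15 CPM in the knockout (log2 fold change -1.11). Its groups nearly touched, with WT 1 at 2.16 and KO 1 at 2.15 CPM. Cxcl14, an epithelial chemokine, stood at -0.94 and Msr1, a scavenger receptor of macrophages, at -0.61. The other 3 were Klhl4 at -0.48, Nop16 at -0.41 and Nrep at -0.29.

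Beyond the targeted genes, 33 lists of 427 genes for the compartments and pathways of tongue were examined, of which 368 genes were tested. None was called. An unadjusted p under 0.05 was found for 24, and the interval of 294 stayed within 2-fold. The lists are described by counts and medians, to be read beside 51.8% of all genes above 0 and 88.2% within 2-fold.

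Proteases and inhibitors that share the epithelium with the HAT/DESC family came first. Of 10 tested genes for other membrane serine proteases and their inhibitors, 9 were above 0, with a median of 0.23. St14, which encodes matriptase, stood at 8.45 to 13.5 CPM in wild type and 9.53 to 15.8 CPM in the knockout (log2 fold change 0.16). Prss8, which encodes prostasin, stood at 0.29, Tmprss13 at 0.15 and the inhibitor gene Spint1 at 0.34. The median of this list was 0.46 in A38x and 0.01 without it. It was 0.09 without KO 3 and 0.28 without KO 4, and thus rested mostly on KO 3. Of 16 kallikrein and secreted inhibitor genes, 10 were above 0 (median 0.04). Spink5, the inhibitor of epithelial kallikreins, stood at 422 ± 44.9 and 396 ± 24.6 CPM (SD, n = 4 each), and Klk7, a protease of shedding corneocytes, stood at -0.28. Serpinb5, the maspin gene, stood at -0.27 and was the only one of these 16 whose groups did not overlap (1.56% of all genes, lower in the knockout).

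Of 12 genes for receptors, channels and growth factors that trypsin-like proteases can cleave, 6 were above 0 (median 0.03). F2rl1, which encodes the protease-activated receptor PAR2, stood at 5.75 to 10.6 CPM in wild type and 4.76 to 7.17 CPM in the knockout (log2 fold change -0.31). Scnn1a, Scnn1b and Scnn1g, the subunits of the epithelial sodium channel, stood at 0.08, 0.29 and 0.34. All were highest in WT 1 and KO 1, for Scnn1a at 30.4 and 28.7 CPM where the other libraries held 8.10 to 17.3. Met, the receptor of hepatocyte growth factor, stood at -0.17.

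No keratin gene of the lingual epithelium was called. Of 11 oral keratin genes, 7 were above 0, the median log2 fold change was 0.03, and 10 had an interval within 2-fold. Krt13 of the suprabasal layers stood at 3169.5 ± 680 CPM in wild type and 3409.5 ± 430 CPM in the knockout (SD, n = 4 each), and Krt76 at 499 ± 83.5 and 535 ± 101 CPM. Krt84 and Krt36, hard keratins of the filiform papillae, stood at log2 fold changes of 0.04 (interval -0.25 to 0.32) and 0.02 (interval -0.26 to 0.30). The median of the list was -0.17 in A38x and 0.23 without it. Of the basal genes, Krt5 stood at -0.09, Krt14 at -0.20 and the basal regulator gene Trp63 at 0.07, and 7 of 12 were above 0.

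The cornified envelope, the protein shell of the outermost cells, was covered by 21 tested genes, of which 11 were above 0 (median 0.04). Rptn, an envelope protein abundant in tongue, stood at 2101, 1782, 2039 and 2617 CPM in wild type and at 2353, 2476, 1486 and 1798 CPM in the knockout. The groups overlapped, and KO 3 was lowest. Sprr3 stood at 0.04, Tgm3, the crosslinking transglutaminase, at 0.04 and Crnn at -0.12. Of 17 desmosome and junction genes, 16 were above 0 (median 0.13), and 15 had an interval within 2-fold. Dsp, the plakin of desmosomes, stood highest in WT 1, KO 1 and KO 3, and its log2 fold change was 0.56 in A38x and -0.07 without it. Without A38x, 8 of 17 were above 0. Perp stood at 0.01.

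Of 11 barrier lipid genes, 9 were above 0 (median 0.07), and all 11 intervals lay within 2-fold. Abca12, the lipid transporter of lamellar granules, stood at 0.13 and Alox12b, a lipoxygenase of the lipid envelope, at 0.17. Of 17 epithelial transcription factor genes, 13 were above 0 (median 0.11). Grhl1, Grhl2 and Grhl3, the grainyhead-like factors whose motif was searched, stood at 0.11, 0.01 and 0.22. Pax9, a regulator of oral epithelium, stood at 46.7 ± 8.22 and 47.4 ± 6.38 CPM (SD, n = 4 each). The ligands, receptors and feedback genes of the EGF family, a pathway fed by shed growth factors, had a median of 0.05 over 15 genes. Errfi1, a feedback inhibitor, had the highest value at 0.43.

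**Figure D4:**
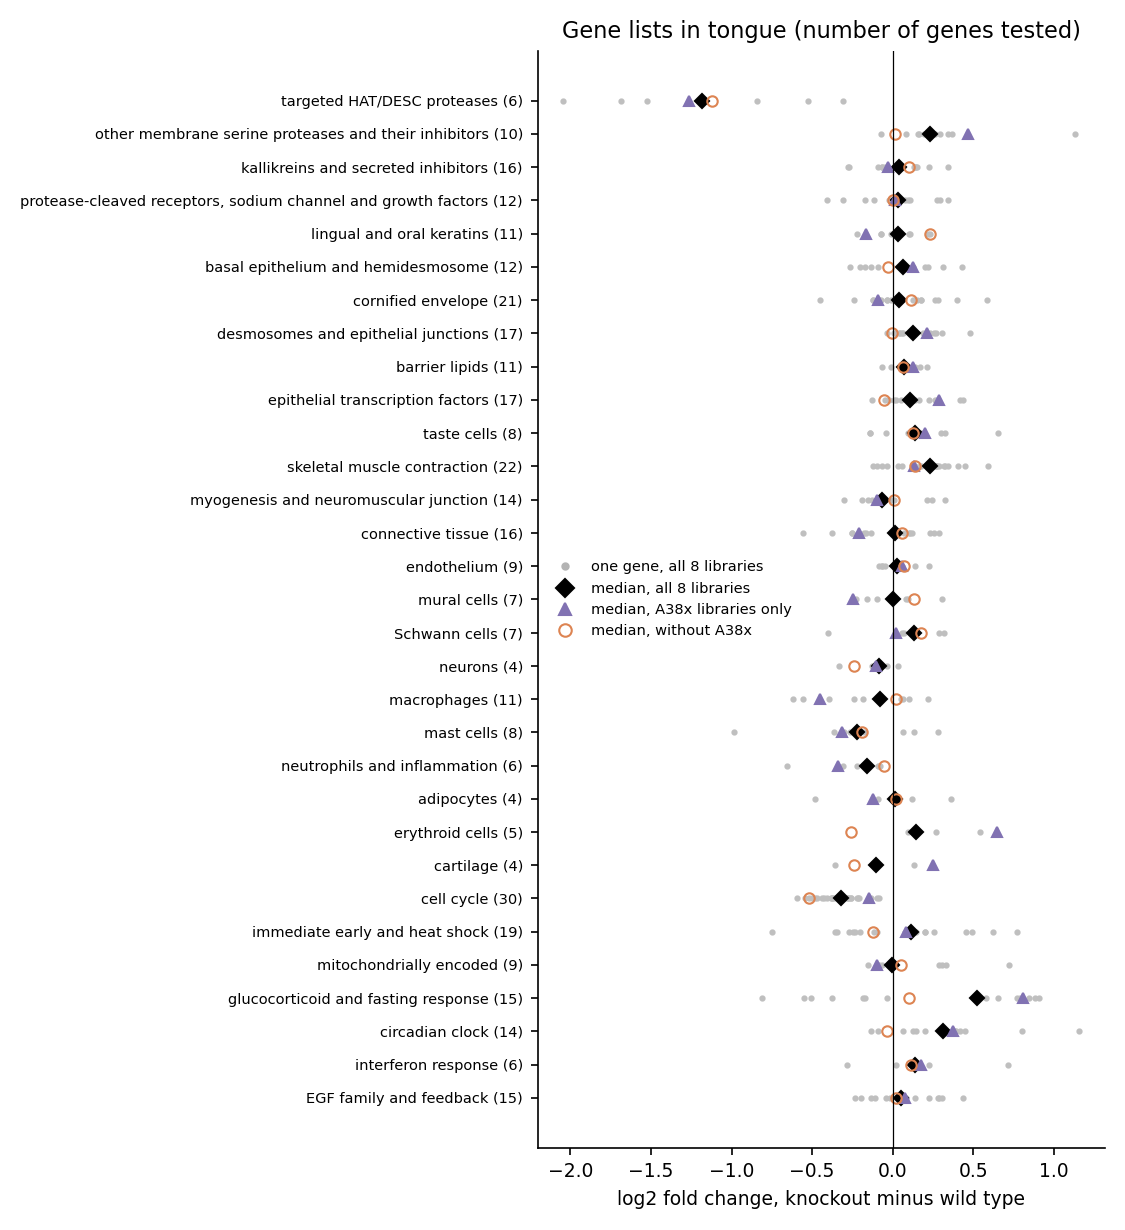
The log2 fold change (knockout minus wild type) by gene list, with the number of genes tested in parentheses. Lists of fewer than 4 tested genes and the sex list were left out. Grey points are genes over all 8 libraries, black diamonds their medians, purple triangles the medians in A38x and open orange circles those without A38x. The targeted genes have a median of -1.18, cell cycle genes one of -0.32, and the glucocorticoid and fasting list spreads to both sides of 0.

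The muscle core showed no called gene. Of 22 contraction genes, 18 were above 0 (median 0.23, and 0.06 without WT 1). Summed over these genes, WT 1 at 35883 and KO 1 at 38402 CPM were lowest, and the other libraries held 41513 to 59558 CPM. Ttn, the giant spring protein of the sarcomere, stood at 0.24 and Myh8, the perinatal myosin, at 0.17. Of 14 myogenesis and neuromuscular junction genes, 4 were above 0 (median -0.07), with Myog, a regulator of muscle differentiation, at -0.15. The groups did not overlap for 1 of these 14, lower in the knockout. Of 16 connective tissue genes, 8 were above 0 (median 0.01). Tnmd, the tenomodulin gene of tendon, was the only one of these 16 whose groups did not overlap (1.56% of all genes, lower in the knockout). It stood at 4.23 to 5.34 CPM in wild type and 2.34 to 3.93 CPM in the knockout (log2 fold change -0.56).

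Of the other cell types, endothelial genes had a median of 0.03 and Schwann cell genes one of 0.13. Macrophage genes had a median of -0.08, and -0.45 in A38x. Of 8 mast cell genes, 5 were below 0 (median -0.22, and -0.12 without KO 3). Mrgprb1, a receptor of mast cells, stood at 2.43 to 2.76 CPM in wild type, 1.43 and 2.69 CPM in KO 1 and KO 2, and 0.655 and 0.453 CPM in KO 3 and KO 4. The 6 tested genes of neutrophils and inflammation were all below 0 (median -0.16), with S100a8 at 1.03 to 9.82 CPM in the knockout and 2.16 to 6.49 CPM in wild type. Interferon response genes had a median of 0.14, with 8 of 14 too low to test. Salivary gland genes such as Muc5b summed to 23.6 CPM in KO 1 and 13.3 CPM in WT 1, where the other libraries held 2.15 to 6.83 CPM. The 8 taste cell genes had a median of 0.14, the 7 mural cell genes 0.00, the 4 neuron genes -0.08, the 4 adipocyte genes 0.02 and the 4 cartilage genes -0.10. The 9 mitochondrially encoded genes had a median of -0.01, and the 19 immediate early and heat shock genes one of 0.11, with 10 above 0. The 5 erythroid genes were all above 0 (median 0.14), and 1 of 5 was without A38x. The haemoglobin gene Hbb-bs was highest in WT 1, at 595 CPM where the other libraries held 133 to 471 CPM.

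Genes of the cell cycle were below 0 in 30 of 30, with a median log2 fold change of -0.32, and none was called. Of these, 12 had an unadjusted p under 0.05 (3.15% of all genes) and 28 an interval within 2-fold. The knockout libraries lay entirely below the wild-type ones for 2 of them, Mcm5 and Tyms (1.56% of all genes). Mcm5 stood at 21.7, 23.8, 19.3 and 22.1 CPM in wild type and 14.5, 19.1, 10.7 and 13.3 CPM in the knockout. Kif23, a motor of cytokinesis, stood at 13.96 to 18.57 CPM in wild type and 9.67, 10.7, 12.3 and 15.6 CPM in the knockout (log2 fold change -0.47). The median of the list was -0.21 without KO 1, -0.15 in A38x and -0.52 without it.

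The genes of mitosis and those of DNA replication differed in their levels by library. This split was made after their values were seen. The mitosis genes are the 23 members of the list left after the 7 replication genes were taken out, by no other rule. They had medians of -0.79 in KO 1 and -0.60 in KO 2 (log2 over the wild-type mean). In KO 3 and KO 4 their medians were -0.18 and 0.07. Mki67, the proliferation marker, thus stood at 89.7 and 98.7 CPM in KO 1 and KO 2, at 152 and 158 CPM in KO 3 and KO 4, and at 133 to 164 CPM in wild type. The 7 replication genes had medians of -0.36 in KO 1, -0.13 in KO 2, -0.88 in KO 3 and -0.49 in KO 4. KO 1 was thus low in both sets. WT 1, which shares its label range with KO 1, had the lowest mitosis median of the wild-type libraries, at -0.26.

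Genes that set KO 3 and KO 4 apart from the other 6 libraries were counted. Of the 15741 genes tested, 1568 were higher in both KO 3 and KO 4 than in each of the other 6 libraries, and 1616 were lower. For KO 1 and KO 2 these counts were 377 and 513. Any 2 libraries hold some such genes by chance, and no share for other pairs is given here. Among these pairs are WT 1 and KO 1, which lay together on the second principal component. KO 3 and KO 4 did not lie together on it, at 14.1 and -13.3. Between the A38x libraries alone, edgeR called 15 of 15975 genes (0.0939%), 9 lower (0.0563%) and 6 higher (0.0376%) in the knockout, with 2 libraries a group, and 2056 (12.9%) had an unadjusted p under 0.05. Among the 15 were Tmprss11a and Tmprss11b. Without A38x, 2 of 15908 genes (0.0126%) were called, again Tmprss11a and Tmprss11b and both lower, and 219 (1.38%) had an unadjusted p under 0.05. The difference between the knockout effect in A38x and that in the other libraries was tested as an interaction term and called 0 of 15741 genes in edgeR (1190, or 7.56%, at an unadjusted p under 0.05). No gene is thus shown to differ in its response between label ranges. The fit without A38x and the interaction were added after the data had been examined.

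The 13 other genes called in A38x all had the opposite sign without A38x. Klf15, a regulator induced by glucocorticoids, stood at 26.3 and 20.4 CPM in KO 3 and KO 4 and at 2.28 to 4.87 CPM in the other 6 libraries. Its log2 fold change in A38x was 3.01 (edgeR adjusted p = 0.00787), and over all 8 libraries it was 2.04 (adjusted p = 0.939). Tsc22d3, which encodes the glucocorticoid-induced leucine zipper protein, stood at 170.0 and 190.1 CPM in KO 3 and KO 4 and at 52.3 to 85.9 CPM elsewhere (A38x log2 fold change 1.45). Klf9 and Trp53inp1 stood at 1.20 and 1.13 in A38x. Arl4d, a small GTPase gene, stood at 2.20 and Gabrr2, a GABA receptor subunit gene, at 2.14.

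Besides Tmprss11a and Tmprss11b, 7 genes were called lower in A38x. Angptl4, an inhibitor of lipoprotein lipase induced by fatty acids, stood at 3.46 and 2.72 CPM in KO 3 and KO 4 and at 18.6 to 56.2 CPM in the other libraries. Its log2 fold change in A38x was -3.56 (edgeR adjusted p = 0.0024). Cpt1a, the enzyme that admits fatty acids to mitochondria, stood at 21.4 and 15.0 CPM in KO 3 and KO 4 and at 51.5 to 65.8 CPM elsewhere (A38x log2 fold change -1.77). Ucp3, a mitochondrial carrier of muscle, stood at -2.80, Acot2, a mitochondrial thioesterase, at -1.60, Fbp2, the muscle form of fructose bisphosphatase, at -1.73 and Nmrk2, a nicotinamide riboside kinase of muscle, at -2.87. Cx3cr1, a chemokine receptor of macrophages, stood at -2.17. In KO 1 and KO 2 the levels of these 7 genes lay within or above the wild-type range, as for Nmrk2 at 8.81 and 22.3 CPM where wild type held 3.60 to 9.63 CPM.

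The list of glucocorticoid and fasting genes showed the same split, made after its values were seen. Its 8 glucocorticoid-responsive and muscle atrophy genes, Fkbp5 and Fbxo32 among them, had medians of 1.33 in KO 3 and 1.17 in KO 4 (log2 over the wild-type mean). In KO 1 and KO 2 their medians were 0.11 and -0.56. Fkbp5, a chaperone of the receptor, stood at 103 and 69.4 CPM in KO 3 and KO 4, 27.4 and 15.5 CPM in KO 1 and KO 2, and 25.7 to 31.9 CPM in wild type. The 7 fatty acid oxidation genes had medians of -1.41 and -1.45 in KO 3 and KO 4, and of 0.13 and 0.62 in KO 1 and KO 2. Over all 8 libraries the list of 15 tested genes had a median of 0.52, with 8 above 0 and 2 within 2-fold. Without KO 4 the median was 0.21 and without A38x it was 0.10.

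**Figure D5:**
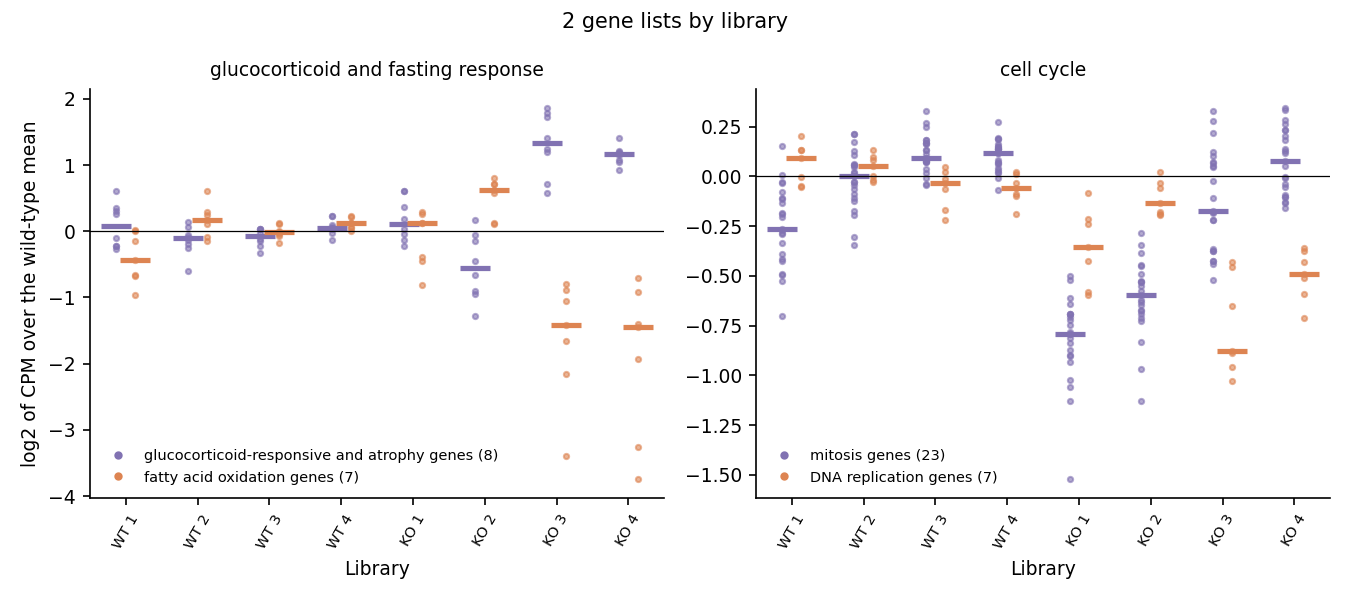
The log2 of CPM over the wild-type mean (vertical axis) for the glucocorticoid and fasting list (left) and the cell cycle list (right) in each library. Points are genes, coloured by the sets named in the key, and bars are the medians of each set. The mitosis genes are those of the cell cycle list outside the replication genes. On the left KO 3 and KO 4 stand apart from the other 6 libraries in both directions, and on the right the mitosis genes have medians of -0.79 and -0.60 in KO 1 and KO 2.

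Other values were compared between KO 3 and KO 4 and the other libraries. Of 14 circadian clock genes, 12 were above 0 (median 0.31), and 5 were without A38x (median -0.03). The list was not high in KO 3 and KO 4 alone. Its summed CPM was 462 and 433 in them, 439 in WT 1 and 434 in KO 1. It was lowest in KO 2, at 299 CPM. The clock genes Per1 and Per2, which glucocorticoids also induce, stood at 120.4 and 76.4 CPM and at 35.2 and 22.3 CPM in KO 3 and KO 4, above each other library. Per1 was also among the glucocorticoid-responsive genes described before. The summed CPM of the mast cell and macrophage lists was lowest in these 2 libraries. KO 3 was also the library with the lowest depth and with the highest level of the gene models Gm26917, at 1916 CPM where the others held 168 to 448, and Gm42418, at 359 CPM where the others held 19.1 to 54.0. The ribosomal RNA entry CT010467.1, which overlaps Gm42418 on the other strand, stood at 583 CPM in KO 3 and at 41.5 to 115 CPM elsewhere. The part of depth and of these entries in the A38x differences was not tested.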

How the data were processed

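The labels' protocols describe RNA of whole tongue, Trizol extraction, cDNA from the SMARTer V4 kit, TruSeq v2 libraries and paired reads on a NextSeq500. No step is said to keep strand, so reads of a gene cannot be separated from those of an antisense gene over it. The submitters' processing notes name the aligner STAR 2.5.2a, the builds GRCm38.p3 and mm10, and DESeq2, limma and edgeR. How reads were counted, with which strand setting and annotation, is not given in the sources used here.

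Whole read counts were deposited by the authors per Ensembl gene, with no normalization, and these were tested. A deposited table of normalised signal, the same counts divided by a constant of each library, was not tested. Of 23422 entries, 2 transgene sequences (beta-lac and LacZ) were left out of library sizes. Coordinates and exon lengths came from GENCODE M21 (GRCm38), which held 23337 of the IDs and not 83. One targeted gene was not analysed here.

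After a low-count filter (filterByExpr, minimum count 10) and TMM scaling, the quasi-likelihood F test of edgeR 4.0.16 (robust, two-sided; R 4.3.3) was run, having been tested on simulated data. P-values were adjusted over all genes tested (Benjamini-Hochberg, threshold 0.05), and intervals are at 95%. CPM uses the TMM-scaled library size. The alternatives were DESeq2 1.42.0, limma 3.58.1 (voom and trend), other scalings and filters, blocks, subsets of libraries and leaving out each library. Named were the targeted genes, up to 12 other genes in each direction with the smallest p at a mean CPM of at least 1, the neighbours within 1 Mb, and from each list any called member or up to 3 of the highest CPM. Genes outside this rule, such as those whose groups did not overlap or that showed a split between libraries, were chosen after their values were seen. The members and lists were chosen with earlier results of these data known.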

Additional observations from a re-analysis of the deposited data

Results flagged for a closer look

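In groups of 4, a library was marked where its gap to the nearest of the others took up nearly the whole range of its group (Dixon's test). Of 138 groups examined, 6 were marked, and chance marks about 5%, or 6.9 groups. In wild type, WT 2 held Lims2 at 2.63 CPM where the other 3 held 1.73 to 1.80 CPM. WT 1 held the macrophage gene Msr1 at 5.86 CPM where the others held 9.62 to 10.4 CPM, so that the lower level of this gene in the knockout was also that of WT 1. WT 1 also held the circadian clock genes at a summed 439 CPM where the others held 330.4 to 339 CPM. In the knockout, KO 2 held Ythdc1 at 79.4 CPM where the others held 100.7 to 103 CPM. KO 1 held the salivary gland genes at a summed 23.6 CPM where the others held 3.85 to 6.83 CPM, and the skeletal muscle contraction genes at a summed 38402 CPM where the others held 57672 to 59558 CPM.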

How the results depend on the processing

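Tmprss11a and Tmprss11b passed in each of the 20 other settings, and no called result reversed. DESeq2 called 4 genes, all lower and all targeted. In A38x alone 15 genes were called, 9 lower and 6 higher, of which 7 were in gene lists outside the targeted genes; with 2 libraries a group the cause was not tested. Leaving out each library in turn left 2 calls each time, and the genes at an unadjusted p under 0.05 ran from 242 (without WT 3) to 1320 (without KO 2). Same-numbered libraries deviated together with correlations of 0.537, 0.135, -0.121 and 0.211, so the replicate numbers are not shown to pair the samples. With the replicate number as a block 2 genes were called, and with the label range as a block 2. Of 673 values under other settings of 34 genes (the targeted genes, the tested neighbours and the genes with the smallest p), 630 stayed on their side of the threshold and within the spread, 40 moved, and 3 came to pass (Tmprss11d in 2 settings, Tmprss11e in 1). Among them, 1 value that was never called changed sign (Uba6 without A38x, at 0.01). Outside these 34, the sign turned between A38x and the other libraries for 13 of the 13 other genes called in A38x, such as Klf15 (3.01 and -0.04). It also turned for 194 of 367 list genes, and the share over all genes is not given here. Signs turn often where values lie near 0. The count thus does not show that the lists differ between label ranges. In simulated data of this size, 70.7% of 99 genes changed 2-fold and 93.8% of 97 genes changed 4-fold were recovered. There were 15535 genes tested and 10 false calls. With so many changed genes, all at 1 CPM or more, the adjusted threshold is looser than with the 2 calls of the real data. The simulation also held no genes made to deviate together in KO 3 and KO 4. It thus does not give the share of changes that the real fit would find.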

Other observations

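At a mean of at least 1 CPM, 41 genes had a log2 fold change past 1 in size over the 8 libraries, 32 higher and 9 lower in the knockout, of which 3 of the lower were Tmprss11a, Tmprss11b and Tmprss11e. The groups did not overlap for 6 of the 41 (2.37% of all genes tested). For 24 of the 41, KO 3 and KO 4 were together the highest or the lowest 2 libraries. The counts over all genes for this pair are given above, and a choice by size favours both traits. These genes were picked by size after their values were seen, and apart from Tmprss11a and Tmprss11b none passed in edgeR. Among the higher ones, Hif3a, a gene of the hypoxia-inducible factor family, stood at 52.3 and 23.3 CPM in KO 3 and KO 4 and at 7.25 to 13.4 CPM elsewhere. Klhl38, a muscle gene of the kelch family, stood at 21.5 and 16.8 CPM in them and at 2.44 to 6.85 CPM elsewhere. Mc5r, which encodes a melanocortin receptor, stood at 9.92 and 9.51 CPM in them and at 1.52 to 3.21 CPM elsewhere. Angptl7, which encodes a secreted angiopoietin-like protein, stood at 106 and 54.5 CPM in them and at 12.2 to 23.9 CPM elsewhere. Myh6, the atrial myosin gene, was highest in KO 1 at 40.2 CPM, where the other libraries held 2.21 to 8.77 CPM.

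The count table also holds 2 transgene entries whose meaning the labels do not give. The entry named beta-lac had 29.6 to 41.7 reads per 1e6 counted reads in the wild-type libraries and 15.6 to 33.3 in the knockout libraries, and the ranges overlapped. The entry named LacZ had 2.25 to 3.72 in wild type and 1.07 to 3.31 in the knockout. Reads of both were thus found in each of the 8 libraries.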
